A study of Mus musculus with 6 samples.

Results

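The NFI factors Nfia, Nfib, Nfic and Nfix, the Runx factors Runx1, Runx2 and Runx3, their partner Cbfb, and Sp7 (osterix) are 9 genes of transcription factors and a partner subunit of tooth root and bone differentiation. They were chosen by name from the 23594 genes of the count table. All 9 passed the filter on low counts, as did 20114 genes in all. The tissue was the apical part of the furcation, the bridge from which molar roots divide, cut by laser capture from mandibular first molars of C57BL/6 mice at postnatal day 4.5. There were 3 control libraries, labelled wild type, and 3 Lhx6-/- libraries. By the study's methods, Lhx6-/- mice are homozygous for an Lhx6-CreER knock-in allele that abolishes the gene, and controls were their littermates. Each library combined tissue from 8 first molars. The loss is therefore present in the whole body and from the start of development, not only in the furcation, and a library is a pool rather than 1 animal. The labels give the sex of none of the pools.

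NFI proteins bind DNA as dimers through a palindrome of which each side reads TTGGC. Nfic is best known in teeth, because mice without it form molar crowns but short or missing roots, with abnormal odontoblasts. Runx proteins bind DNA through the Runt domain and need Cbfb, which touches no DNA itself, to bind it firmly. Runx2 is the master regulator of the osteoblast lineage, and Sp7, a zinc finger factor of the Sp family, acts after it in osteoblasts and is also needed for root formation. In bone and dentin cells these factors act on genes of the mineralizing matrix, such as osteocalcin (Bglap) and osteopontin (Spp1).

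The Runx site is read from the core letters TGTGGT, which appear as ACCACA when the site lies on the opposite strand. In RefSeq's promoter windows for mouse (build GRCm38.p6), the 250 bases before the start held these letters on either strand in 14% of 32851 windows. Among the 9 factors, 7 had windows, 12 in all, and the letters occurred in 1 window each of Nfix, Runx2 and Runx3. Among 24 genes of matrix and mineralization, 19 had windows, 24 in all, and 6 genes held the letters. The stretches of 30 bases around the site are shown for the 3 factors, because these are the factors whose own windows hold it, and for 3 matrix genes commonly used as readouts of Runx2. Each is written 5′ to 3′ on the strand of its gene, with the letters of the Runx site in capitals.
Runx2: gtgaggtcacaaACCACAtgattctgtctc
Runx3: gtccctcaACCACAgaACCACAaggccagg
Nfix: aacaaagctgaaACCACAtatttaggattt
Bglap: ccgcaatcacctACCACAgcatcctttggg
Spp1: tttttttttttaACCACAaaaccagaggag
Mmp13: attctgccacaaACCACActtaggaagaaa
The Runx2 stretch is chr17:44814690-44814719 on the minus strand, and its site begins 80 bases before the start. The Runx3 stretch is chr4:135120503-135120532 on the plus strand, with a pair of sites that begin 134 and 126 bases before the start. The Nfix stretch is chr8:84773015-84773044 on the minus strand. By the GENCODE annotation of mm10 the Runx2 and Nfix stretches lie inside the annotated gene, since longer transcripts start further upstream, and the Runx3 stretch lies before it. Those of the matrix genes are chr3:88384581-88384610 on the minus strand for Bglap, chr5:104434971-104435000 on the plus strand for Spp1 and chr9:7272384-7272413 on the plus strand for Mmp13. The same letters in another gene's window are only letters, and nothing in these libraries measured binding. The NFI letters TTGGC were found on either strand in 41.5% of all windows and in windows of Nfix, Runx1 and Runx3, and the Sp letters GGGCGG were found in 32.7% of all windows and in windows of Nfic, Nfix, Runx3 and Cbfb. Matches of different motifs were counted separately, whether or not they overlapped.

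The libraries held 60132323 to 76157433 estimated reads each. The 7 markers of the enamel-forming ameloblast summed to between 125313 and 148474 CPM (the counts scaled to a library total of 1000000), so RNA of the enamel organ was present beside that of the mesenchyme. Summed CPM of 9 odontoblast markers ranged from 96395 to 121439 in controls and from 115345 to 119187 in Lhx6-/- libraries, and of 9 osteoblast markers from 8198 to 8467 and from 8207 to 8421. Most of the odontoblast sum was collagen I, Col1a1 and Col1a2 (means of 75560 and 27690 CPM in controls), which the osteoblast list lacks. These sums therefore do not compare the amounts of the cell types. No listed marker of either cell type was at 0 in a library. In such bulk tissue, fewer cells of a type and less RNA per cell cannot be told apart. The targeted gene was measured at 27.8, 18.2 and 21.6 CPM in controls and at 12.8, 10.2 and 10.3 CPM in Lhx6-/- libraries. Lhx6 RNA was therefore lower in every mutant library than in every control library but was not absent, with a log2 fold change of -1.04 (SE 0.16, adjusted p = 0.0210 from the edgeR quasi-likelihood test, Benjamini-Hochberg method). It passed an adjusted p of 0.05 in 15 of 19 alternative analyses.

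None of the 9 factors passed the test for a difference between Lhx6-/- and control tissue. By an adjusted p under 0.05, 0 of 9 passed in edgeR, where 0.403% of all tested genes did. The same count was 0 in DESeq2 and in both limma analyses. By a fold of at least 1.5 with an unadjusted p under 0.05 it was 0 of 9, against 3.28% of all genes, and by an unadjusted p under 0.05 alone it was 0 of 9, against 9.81%. Point estimates were higher in Lhx6-/- libraries for 7 factors and lower for Runx1 and Cbfb, with folds from 0.938 to 1.13. The median log2 fold change of the 9 was 0.08, beside -0.00187 over all tested genes. The 95% interval of the fold lay within 1.5-fold in either direction for all 9, reaching from 0.835 (Cbfb) to 1.32 (Runx3), while 54.2% of all tested genes had intervals that narrow. That share includes genes with few counts. The 9 factors were abundant, since only 1.47% (Nfix) to 25.0% (Runx3) of tested genes had a higher mean CPM. The intervals of the 9 factors hold for the fit by genotype alone. When Y-linked RNA entered the fit as a covariate, the log2 fold changes of Nfic (0.50), Nfix (0.35), Runx2 (0.27), Runx3 (0.42) and Cbfb (-0.29) lay outside them. With the level of dental epithelium markers as a covariate, Nfic (-0.12), Nfix (-0.13) and Cbfb (0.14) lay outside them on the opposite side.

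**Figure D1:**
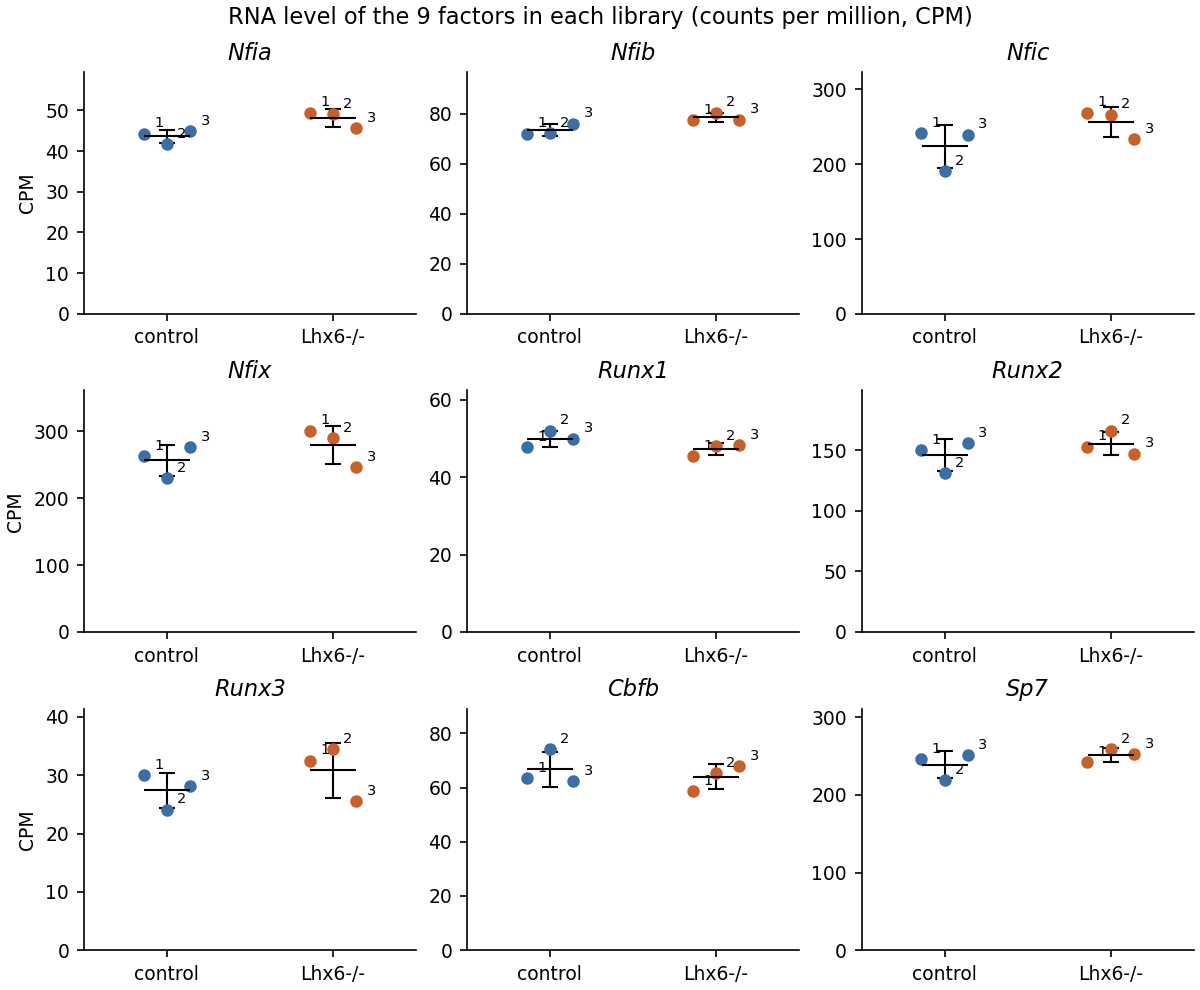
RNA level of each factor in CPM (vertical axes from 0) in 3 control (blue) and 3 Lhx6-/- (orange) libraries, numbered by replicate, with the mean and SD as bars. The groups overlap for 7 factors and are separate for Nfia and Nfib, whose means differ by little (43.6 and 48.03 CPM; 73.6 and 78.6 CPM).

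Of the NFI genes, Nfic (chr10:81396186-81455635, minus strand, mm10), the root factor, had 241, 191 and 239 CPM in controls and 269, 266 and 234 CPM in Lhx6-/- libraries. Control replicate 2 was the lowest and the groups overlapped. The log2 fold change was 0.18 (SE 0.097, adjusted p = 0.614 from edgeR), and the interval of the fold ran from 0.977 to 1.31. Nfix (chr8:84699876-84800344, minus strand), known from muscle and neural stem cells, followed the same library pattern, with 262, 230 and 276 CPM in controls and 301, 289 and 247 CPM in Lhx6-/- libraries. Its log2 fold change was 0.10 (SE 0.093, adjusted p = 0.803 from edgeR).

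Nfia (chr4:97772734-98118874, plus strand), a factor of glial development, had 44.3, 41.7 and 44.8 CPM in controls and 49.5, 49.1 and 45.5 CPM in Lhx6-/- libraries. Nfib (chr4:82290173-82705750, minus strand), known from lung and hair follicle stem cells, had 72.1, 72.4 and 76.2 CPM in controls and 77.5, 80.6 and 77.7 CPM in Lhx6-/- libraries. For both genes the lowest Lhx6-/- library lay above the highest control library, by less than 2 CPM. Groups without overlap were found for these 2 of 9 factors and for 14.7% of all tested genes, 7.86% with the Lhx6-/- group higher. The log2 fold changes were 0.12 (SE 0.072, adjusted p = 0.642 from edgeR) for Nfia and 0.080 (SE 0.065, adjusted p = 0.772 from edgeR) for Nfib.

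Among the Runx genes, Runx2 (chr17:44495987-44814797, minus strand), the osteoblast regulator, had 150, 131 and 156 CPM in controls and 153, 166 and 147 CPM in Lhx6-/- libraries. The lowest value was again that of control replicate 2, and the other 5 libraries lay close together. The log2 fold change was 0.076 (SE 0.080, adjusted p = 0.842 from edgeR), and the interval of the fold ran from 0.934 to 1.19. Runx3 (chr4:135120652-135177990, plus strand), a factor of sensory neurons, T cells and skeletal cells, had 30.01, 24.09 and 28.1 CPM in controls and 32.5, 34.5 and 25.5 CPM in Lhx6-/- libraries. Lhx6-/- replicate 3 was below the highest control library, and the log2 fold change was 0.15 (SE 0.11, adjusted p = 0.740 from edgeR).

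Runx1 (chr16:92601466-92826149, minus strand), a blood and epithelial factor, had 47.7, 52.0 and 49.9 CPM in controls and 45.48, 48 and 48.26 CPM in Lhx6-/- libraries. Cbfb (chr8:105170674-105217989, plus strand), the shared partner, had 63.5, 74.3 and 62.5 CPM in controls and 58.8, 65.3 and 68.0 CPM in Lhx6-/- libraries. Both were highest in control replicate 2, where Runx2 and Runx3 were lowest. The log2 fold changes were -0.093 (SE 0.072, adjusted p = 0.757 from edgeR) for Runx1 and -0.074 (SE 0.086, adjusted p = 0.866 from edgeR) for Cbfb.

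Sp7 (chr15:102356606-102367182, minus strand) had 247, 219 and 252 CPM in controls and 242, 259 and 253 CPM in Lhx6-/- libraries. Apart from control replicate 2, the 5 libraries lay between 242 and 259 CPM. The log2 fold change was 0.056 (SE 0.078, adjusted p = 0.893 from edgeR), the smallest in size of the 9, and the interval of the fold ran from 0.924 to 1.17. Genes on the opposite strand overlap several of these factors, and the strand used in counting is not given in the sources used here. Supt3, with a mean of 773 counts a library, and Runx2os1, with 144, overlap Runx2, and Lyl1, with 634, overlaps Nfix, so part of those genes' reads could be counted for the factor or the reverse.

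**Figure D2:**
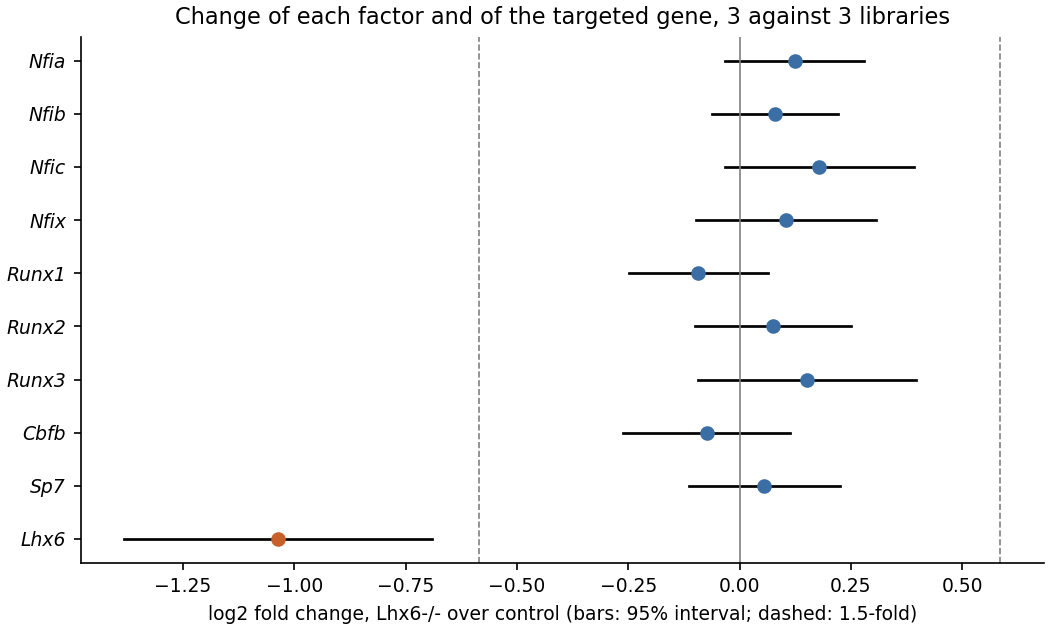
Log2 fold change of Lhx6-/- over control libraries (horizontal axis) for the 9 factors and Lhx6, with bars for the 95% interval and dashed lines at 1.5-fold. The intervals of all 9 factors cross 0 and stay inside the dashed lines, whereas that of Lhx6 (estimate -1.04) lies beyond the lower line.

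Levels were compared between genes as CPM per kilobase of merged exons, since a longer transcript gives more reads. In controls Sp7 was the most abundant of the 9 at 70.4 ± 5.12 (SD, n = 3). Nfix followed at 34.9 ± 3.22 and Nfic at 33.8 ± 4.30, with library ranges that overlapped. Next came Cbfb at 19.2 ± 1.88 and Runx2 at 16.5 ± 1.49, separated in controls by a narrow gap (lowest Cbfb library 17.9, highest Runx2 library 17.7). The lowest were Runx3 at 5.48 ± 0.604, Nfib at 4.92 ± 0.151, Runx1 at 4.15 ± 0.176 and Nfia at 4.003 ± 0.151. The ranges of Runx3 and Nfib overlapped, and so did those of Runx1 and Nfia. In Lhx6-/- libraries the same 4 genes were lowest, with Sp7 at 74.0 ± 2.59, Nfic at 38.7 ± 2.96 and Nfix at 37.9 ± 3.87, and Cbfb (18.4 ± 1.36) and Runx2 (17.6 ± 1.10) overlapped. With the longest annotated transcript as the length, Sp7, Nfix and Nfic were still in that order in controls, but Runx1 (8.51) came before Nfib (8.07) and Runx3 (7.05).

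Nfic and Nfix together supplied most NFI RNA. On the per-kilobase scale Nfic made up 43.5 ± 1.54% (SD, n = 3) of the summed NFI level in controls and 44.8 ± 0.303% in Lhx6-/- libraries, and Nfix 45.0 ± 0.786% and 43.9 ± 0.966%. Nfib contributed 6.38 ± 0.576% and 6.12 ± 0.487%, and Nfia 5.19 ± 0.335% and 5.12 ± 0.197%. Runx2 supplied 63.1 ± 1.27% of the summed Runx level in controls and 63.6 ± 0.972% in Lhx6-/- libraries, Runx3 20.9 ± 1.15% and 22.2 ± 2.08%, and Runx1 16.0 ± 1.81% and 14.2 ± 1.16%. Each mean share differed between genotypes by less than 2 percentage points, and for each gene the library ranges overlapped. Cbfb RNA came to 0.740 ± 0.131 of the summed Runx level in controls and 0.667 ± 0.0787 in Lhx6-/- libraries, again with overlapping libraries. These shares depend on the length used. With the longest transcript, Nfic came to 37.6% and Nfix to 49.1% of the NFI level in controls, and Runx2 to 59.1%, Runx1 to 22.4% and Runx3 to 18.5% of the Runx level, so that Runx1 came before Runx3.

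**Figure D3:**
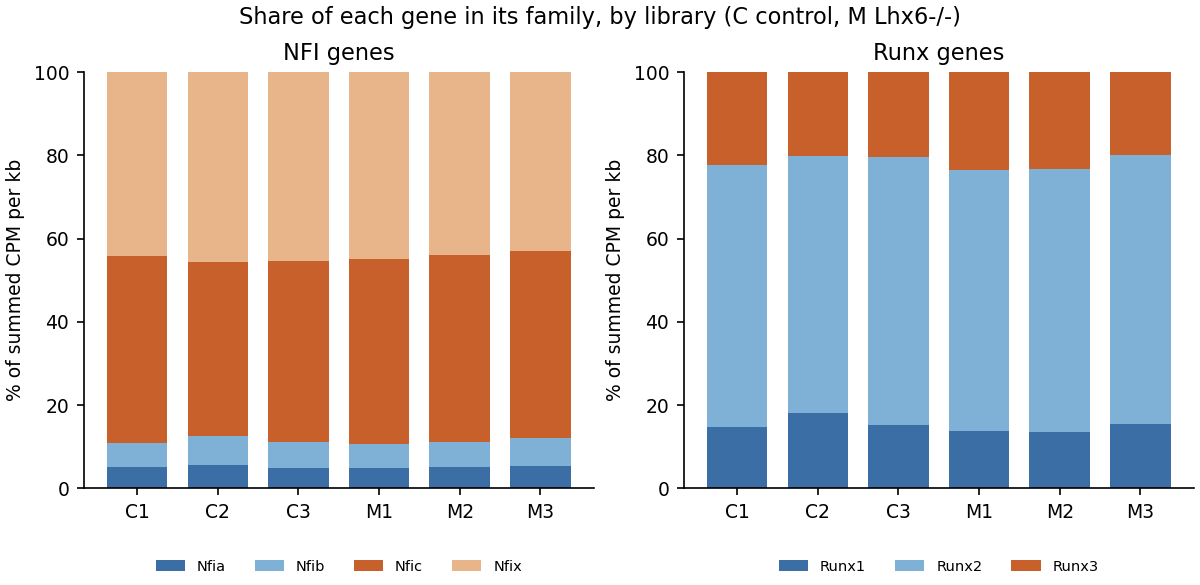
Share of each gene in the summed CPM per kilobase of its family (vertical axis, %) in each library, C for control and M for Lhx6-/-. The stacks look alike in both genotypes, with Nfic and Nfix near equal and Runx2 above 61% of the Runx total in all 6 libraries on this length.

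Several of the small differences between the groups moved with 1 library. Control replicate 2 was the lowest of 6 libraries for Nfia, Nfic, Nfix, Runx2, Runx3 and Sp7 and the highest for Runx1 and Cbfb. The same library had the highest level of 12 dental epithelium markers, the keratins Krt5, Krt14 and Krt17 among them, with a summed 2349 CPM against 1522 and 1594 in the other controls and 1106 to 1255 in Lhx6-/- libraries. None of the 12 was at 0 in any library. All 12 had lower point estimates in Lhx6-/- libraries (median log2 fold change -0.64), 6 of them, the 3 keratins included, by the fold rule that 3.28% of all tested genes passed, and 0 of 12 by an adjusted p under 0.05 in edgeR. Without control replicate 2, the log2 fold change was 0.074 for Nfic, 0.030 for Nfix, 0.0012 for Runx2, 0.064 for Runx3, 0.0067 for Cbfb and -0.0056 for Sp7, and 0 of 9 factors passed any of the 3 rules. Another fit took the mean log2 CPM of the dental epithelium list as a covariate. In it Nfic (-0.12), Nfix (-0.13), Runx2 (-0.097), Runx3 (-0.092) and Sp7 (-0.079) turned lower and Cbfb (0.14) higher, and none passed. The mean log2 CPM of that list was 6.24 to 6.85 in controls and 5.78 to 6.02 in Lhx6-/- libraries. These ranges did not overlap, so the fit could not fully separate the covariate from genotype. Summed CPM of 4 Y-linked genes, which reflect the sexes in each pool, ranged from 14.3 to 58.0 in controls and from 54.8 to 96.1 in Lhx6-/- libraries. With the mean log2 CPM of these 4 genes as a covariate, Nfic alone passed the adjusted threshold (log2 fold change 0.50, adjusted p = 0.0269 from edgeR). In that fit 6 of the 9 factors had an unadjusted p under 0.05. In the same fit, 372 of all 20114 tested genes passed the adjusted threshold and 3224 had an unadjusted p under 0.05. The part of epithelial content and of sex in these differences was not tested further.

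**Figure D4:**
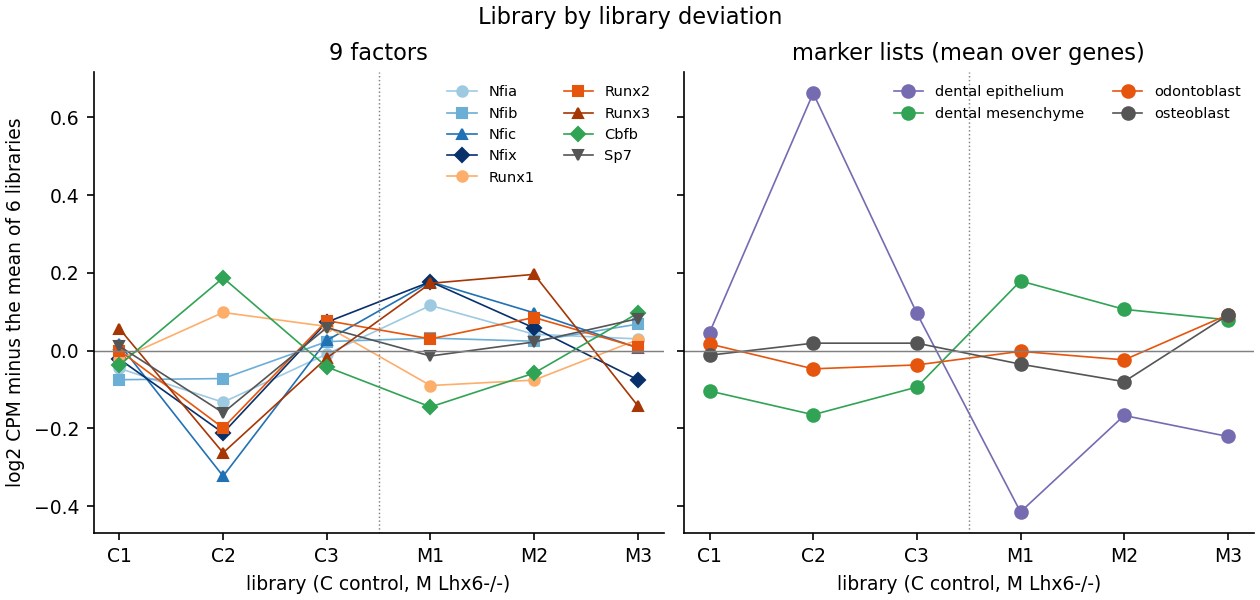
Deviation of log2 CPM from the mean of 6 libraries (vertical axis) for the 9 factors (left) and for the mean of 4 marker lists (right), by library, C for control and M for Lhx6-/-. In control replicate 2, 6 factors fall to the lowest point of their line, Cbfb and Runx1 rise, and dental epithelium markers reach 0.66 above their mean.

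Across the 6 libraries, which are few and differ in tissue make-up, the factors formed sets that moved together. As a description only, the nearest of the other factors by Pearson's r of log2 CPM was Nfix for Nfic (r = 0.92), Nfic for Nfia (0.92), Runx2 (0.90) and Runx3 (0.87), Runx2 for Sp7 (0.87), Nfia for Nfib (0.78), and Cbfb and Runx1 for each other (0.81). The lowest r was that of Nfix with Cbfb (-0.97). Among 15118 genes with a mean of at least 1 CPM, those most like Nfic were Zfp469 (0.997), Zfp532 (0.997) and Shank3 (0.992), with 412 genes above 0.9. For Runx2 they were Mthfd2l (0.995), Ocel1 (0.992) and the zinc finger factor Sall1 (0.99), with 212 genes above 0.9. For Sp7 they were Gm37298 (0.988), Cnst (0.987) and Gm37233 (0.984), with 100 genes above 0.9.

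Genes that work with the 9 factors were described by lists of known partners and targets. The lists were chosen with earlier results of these data known. Counts in them, set beside the share of all tested genes, are therefore descriptions and not tests of the lists. Of 31 measured cofactors and regulators of Runx proteins, 25 had higher and 6 lower point estimates in Lhx6-/- libraries, with a median log2 fold change of 0.08. By an adjusted p under 0.05 in edgeR, 1 of 31 was higher, against 0.323% of all tested genes. That gene was Twist2, a basic helix-loop-helix factor of mesenchyme whose family binds the Runt domain of Runx2 and holds back its activity. Twist2 had 9.48, 7.01 and 9.36 CPM in controls and 22.2, 20.9 and 16.2 CPM in Lhx6-/- libraries. It was 2.27-fold higher (interval 1.81 to 2.83), with a log2 fold change of 1.18 (SE 0.15, adjusted p = 0.00726 from edgeR), and it passed in 18 of 19 alternatives. The exception was the covariate for dental epithelium (log2 fold change 0.77, adjusted p = 0.198).

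Twist2's relative Twist1, chosen after its values were seen, was more abundant and stood at 28.8, 29.3 and 27.4 CPM in controls and 34.5, 32.1 and 31.8 CPM in Lhx6-/- libraries, without overlap but not past the test (log2 fold change 0.19, SE 0.080, adjusted p = 0.472 from edgeR). Runx1t1, the corepressor also called ETO, had 3.93, 4.72 and 3.76 CPM in controls and 6.73, 7.44 and 5.46 CPM in Lhx6-/- libraries. It passed the fold rule but not the adjusted threshold in edgeR (log2 fold change 0.64, SE 0.17, adjusted p = 0.203). Runx1t1 passed the adjusted threshold in 1 of 19 alternatives, that of DESeq2 (adjusted p = 0.0499). The cofactors of highest mean CPM were the Groucho corepressor Tle2 (128 ± 29.0 CPM in controls and 142 ± 28.9 in Lhx6-/- libraries, SD, n = 3) and the histone deacetylase Hdac5 (91.0 and 93.6 CPM), and neither passed.

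Of 18 other osteogenic and odontogenic transcription factors, 12 had higher and 6 lower point estimates. By an adjusted p under 0.05 in edgeR, 1 of 18 passed, against 0.403% of all tested genes. Sox11, a SoxC factor of progenitor cells, had 10.8, 10.6 and 11.6 CPM in controls and 20.9, 18.2 and 14.9 CPM in Lhx6-/- libraries. All 3 mutant libraries lay above the controls, with a log2 fold change of 0.69 (SE 0.13, adjusted p = 0.0405 from edgeR), but Sox11 passed in only 10 of 19 alternatives. It did not pass without control replicate 1, 2 or 3 or Lhx6-/- replicate 1 or 2 (adjusted p = 0.0869 to 0.199 from edgeR). Nor did it pass with the dental epithelium or the osteoblast covariate, in limma voom or with non-robust dispersion. Dlx3, an abundant homeobox factor of dentin and enamel, had a log2 fold change of 0.015 and did not pass.

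Of the 23 measured Sp and Klf relatives of Sp7, 14 had higher and 9 lower point estimates, and 0 passed an adjusted p under 0.05 in edgeR, with 4 at an unadjusted p under 0.05 (9.81% of all tested genes). Sp6, the epithelial factor of the family, stood at 237 CPM in controls and 241 in Lhx6-/- libraries. Klf4, an epithelial and odontoblast factor, stood at 111 and 103 CPM. Klf1, which drives globin genes in red cell precursors, passed the fold rule alone, with a log2 fold change of -0.97 (SE 0.41, adjusted p = 0.490 from edgeR), and 7 of 7 erythroid markers had lower point estimates (median log2 fold change -0.73, summed CPM 2987 to 3768 in controls and 1679 to 2394 in Lhx6-/- libraries, none at 0). The part of blood cells in the Klf1 value was not tested. The isolated point of Sp5, chosen after its values were seen, rests on 11, 8 and 0 counts in controls and 16, 30 and 17 in Lhx6-/- libraries.

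**Figure D5:**
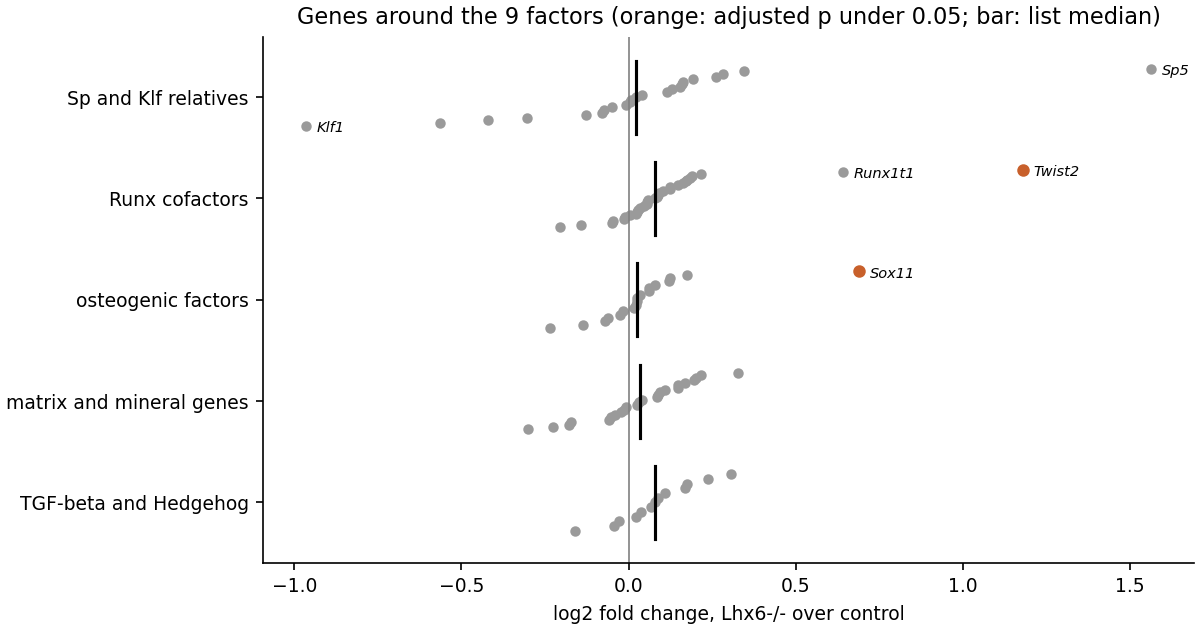
Log2 fold change of Lhx6-/- over control (horizontal axis) of every tested gene in 5 lists around the 9 factors, in orange where the adjusted p was under 0.05, with a bar at each list's median. Twist2 (1.18) and Sox11 (0.69) are the only orange points, and the medians lie between 0.023 and 0.080.

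Of 24 matrix and mineralization genes listed as downstream of Runx2, Sp7 or Nfic, 14 had higher and 10 lower point estimates (median log2 fold change 0.035). By an adjusted p under 0.05 in edgeR 0 passed, with 4 at an unadjusted p under 0.05, where 9.81% of all tested genes were. The collagen I genes, the most abundant, were nearly level, with Col1a1 at 75560 CPM in controls and 81110 in Lhx6-/- libraries and Col1a2 at 27690 and 28760. Of the 3 matrix genes whose Runx sites are shown above, Bglap stood at 2441 CPM in controls and 2175 in Lhx6-/- libraries, Spp1 at 1681 and 1891, and Mmp13, a matrix collagenase, at 516 and 600. Their log2 fold changes were -0.18, 0.15 and 0.20, and none passed. The groups overlapped for Spp1 and Mmp13 but not for Bglap (2429 to 2448 CPM in controls and 2022 to 2332 in Lhx6-/- libraries). Bglap2, also on the list, was lower without overlap too (log2 fold change -0.225, adjusted p = 0.454 from edgeR). Dspp, the dentin sialophosphoprotein of odontoblasts and a reported target of Nfic and Runx2, had 4726, 4389 and 4212 CPM in controls and 5344, 5693 and 5856 CPM in Lhx6-/- libraries. The groups were separate, with a log2 fold change of 0.33 (SE 0.087, adjusted p = 0.199 from edgeR). Dspp passed the adjusted threshold in 1 of 19 alternatives, that of DESeq2 (adjusted p = 0.000948). Mepe, another gene of the list, was separate in the other direction, at 28.1 CPM in controls and 23.1 in Lhx6-/- libraries. Its log2 fold change was -0.30 (SE 0.087, adjusted p = 0.246 from edgeR). Groups without overlap were found for 6 of the 24 genes and for 14.7% of all tested genes. Dspp, Mepe and Bglap2 were named after their values were seen.

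Nfic acts in the root together with TGF-beta and Hedgehog signals. Of 13 genes of these pathways, 10 had higher and 3 lower point estimates, with a median log2 fold change of 0.08. By an adjusted p under 0.05 in edgeR, 0 of 13 passed. At an unadjusted p under 0.05 it was 3 of 13, all higher, where 9.81% of all tested genes passed in either direction. These were the Hedgehog inhibitor Hhip (14.8 CPM in controls and 18.5 in Lhx6-/- libraries, log2 fold change 0.31), the ligand Tgfb3 (159 and 189 CPM, 0.24) and the Hedgehog receptor Ptch1 (97.3 and 111 CPM, 0.17), named after their values were seen. The ligand Tgfb1 stood at 232 CPM in controls and 230 in Lhx6-/- libraries, and its receptor Tgfbr2 at 203 and 211, neither past any rule.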

How the data were processed

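RNA of laser-captured furcation tissue was sequenced as single-end reads of 75 cycles. According to the submitters' processing notes and the study's methods, the authors mapped trimmed reads to mm10 with STAR 2.6.1d and used Partek. The counting annotation and strand setting are not given in the sources used here. The deposited values are estimated counts per gene for 6 libraries, not whole numbers, in a table filtered to genes whose highest count is at least 10. Its columns carry no gene names, which were taken in order from the authors' results table. The order was tested against that table's totals and deviated by at most 1.14e-07. The deposited sums were 79.96 to 85.19% of those the authors' table implies. That table also holds the authors' fold changes and p-values, which were not used.

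Estimated counts were rounded and tested with edgeR 4.0.16 (quasi-likelihood, robust, TMM, filterByExpr, 2-sided, R 4.3.3), by genotype alone, with Benjamini-Hochberg adjustment over 20114 genes. DESeq2 1.42.0, limma 3.58.1, other scalings and filters, covariates and leaving out each library were alternatives. One, the library totals implied by the authors' table, was added after seeing the data. CPM used the deposited sums. Each covariate was the mean, over the genes of its list, of log2 CPM scaled by TMM. Lengths came from GENCODE M21, where 23180 of 23594 names matched, and promoters from RefSeq. The code was tested on simulated data. Replicates are separate pools, with no animal named, so p-values measure the spread between pools. With 3 against 3 libraries an exact permutation test cannot go below p = 0.1, so none was used. Named genes were the 9 factors, Lhx6, in each list the genes past the adjusted threshold or the fold rule and the 2 of highest mean CPM, and the 3 genes most like each of Nfic, Runx2 and Sp7. The members and lists were chosen with earlier results of these data known. No sequence of a protein, nor a promoter of Sp7 or Nfib, was used here. A few genes that this rule names are not reported here.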

Additional observations from a re-analysis of the deposited data

How the results depend on the processing

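In edgeR 81 genes had an adjusted p under 0.05. DESeq2 gave 315, the dental epithelium covariate 8, the Y-linked covariate 372, and leaving out 1 library 12 to 127, the lowest with control replicate 3 left out, the highest with control replicate 1 left out, and 31 and 20 with Lhx6-/- replicates 1 and 2 left out. The Y-linked covariate also raised the genes past the fold rule from 660 to 1241 and those with an unadjusted p under 0.05 from 1974 to 3224. Of the 9 factors it left 1 past the adjusted threshold (Nfic) and 6 at an unadjusted p under 0.05. Leaving out 1 library gave 0 to 1 factors at an unadjusted p under 0.05, the 1 being Runx3 with Lhx6-/- replicate 3 left out. Lhx6 missed the adjusted threshold with the Y-linked covariate (log2 fold change -0.58). It ranged from -1.17 to -0.86 with 1 library left out, and missed the threshold when that was control replicate 3 or Lhx6-/- replicate 2 or 3. The cause of these shifts was not tested.

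The dental epithelium covariate turned Nfic (-0.12), Nfix (-0.13), Runx2 (-0.097), Runx3 (-0.092), Sp7 (-0.079), Tle2 (-0.36), Col1a1 (-0.20) and Col1a2 (-0.11) lower and Cbfb (0.14) higher, and the Y-linked covariate reversed Sp6 (-0.36), Tgfb1 (0.11), Tgfbr2 (-0.017) and Ibsp (-0.042). With 1 library left out in turn, values crossed 0 for Cbfb (-0.14 to 0.0067), Sp7 (-0.0056 to 0.10), Tle2 (-0.036 to 0.29), Col1a1 (-0.013 to 0.18) and Col1a2 (-0.017 to 0.10), each when control replicate 2 was the one left out. They also did for Sp6 (-0.10 to 0.14), Dlx3 (-0.022 to 0.059), Tgfb1 (-0.071 to 0.0051) and Tgfbr2 (-0.020 to 0.080). Nfia, Nfib and Runx1 kept their direction in all 19 alternatives.

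With the longest transcript as the length, levels in controls were 4.58 CPM per kilobase for Nfia, 8.07 for Nfib, 46.8 for Nfix, 8.51 for Runx1, 22.6 for Runx2, 7.05 for Runx3, 23.1 for Cbfb and 77.2 for Sp7.

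Control and Lhx6-/- libraries share replicate numbers, but same-numbered libraries did not deviate together (r = 0.026, -0.029 and -0.031). These are the numbers of the sample titles. The count table numbers the mutant libraries differently, and the pairs that share a number there gave r = -0.062 and -0.006. The block used the titles' numbers. With the replicate block 134 genes passed an adjusted p under 0.05, and 0 of the 9 factors did.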

Other observations

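Of the marker lists not described above, 9 of 9 dental mesenchyme genes and 8 of 8 endothelial genes had higher point estimates in Lhx6-/- libraries, with median log2 fold changes of 0.20 and 0.22, and Cldn5 was the 1 gene of both lists with an adjusted p under 0.05 in edgeR. All 8 cell cycle genes had lower point estimates (median -0.18), with 0 past the adjusted threshold and 2 at an unadjusted p under 0.05. Of 7 chondrocyte markers, 4 had higher and 3 lower point estimates. Col9a1, a cartilage collagen, was higher (0.942 ± 0.107 CPM in controls and 5.002 ± 1.81 in Lhx6-/- libraries, SD, n = 3, 5.23-fold, adjusted p = 0.00576 from edgeR), and Hapln1 and Cnmd passed the fold rule alone. Col2a1, the most abundant gene of the list, was lower, at 959 and 762 CPM (log2 fold change -0.35, adjusted p = 0.391 from edgeR). The summed CPM of the chondrocyte list was 795 to 1151 in controls and 711 to 846 in Lhx6-/- libraries. Of 8 pericyte and muscle markers 7 had higher point estimates, with the pericyte gene Rgs5 at 135 and 220 CPM (adjusted p = 0.0135 from edgeR) and Myh11 past the fold rule alone. Amtn, an enamel protein gene of maturing ameloblasts, was lower, at 279 and 194 CPM (adjusted p = 0.0210 from edgeR), among 7 ameloblast markers of which 5 had lower point estimates. Follicle and nerve lists had 0 genes past either rule. Leukocyte and osteoclast lists had medians of -0.10 and -0.11. The summed CPM of the dental mesenchyme list was 1293 to 1347 in controls and 1427 to 1530 in Lhx6-/- libraries, without overlap. Most of that sum was Vim, with means of 978.5 CPM in controls and 1077 in Lhx6-/- libraries. Of the list's 9 genes, 0 passed the adjusted threshold, and 5 had an unadjusted p under 0.05, where 9.81% of all tested genes did. Groups without overlap were found for 6 of the 9, against 14.7% of all tested genes. Of the 9 factors, 0 passed the adjusted threshold, 0 had an unadjusted p under 0.05 and 2 had groups without overlap. The part of these cell types in the values of the 9 factors was not tested.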
